A study of Mus musculus with 2 samples.

Results

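The Wnt pathway was examined at the level of chromatin accessibility in the organ of Corti through 43 of its genes, of 21938 protein-coding genes in the annotation. The 43 genes are 18 Wnt ligands, 12 receptors (the 10 Frizzled genes, Lrp5 and Lrp6), 6 intracellular effectors (Ctnnb1, Apc, Tcf7, Tcf7l1, Tcf7l2 and Lef1) and 7 secreted inhibitors (Dkk1, Dkk2, Dkk3, Sfrp1, Sfrp2, Frzb and Wif1). They were chosen by name, by a rule that used no measured value, though earlier results of these data were known. A peak was assigned to a gene when its centre lay within 3 kb of any transcription start site (TSS) of that gene, in which case it is called a promoter peak, or lay in the gene body or the 10 kb upstream of it.

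The data were ATAC-seq peak lists, 1 for WT mice and 1 for Bmi1-/- mice at postnatal day 2. ATAC-seq marks accessible DNA, into which the Tn5 transposase inserts sequencing adapters. Bmi1 encodes a subunit of Polycomb repressive complex 1, which keeps developmental genes repressed, and the knockout mice (FVB.129P2-Bmi1tm1Brn/MvlJ, backcrossed 10 to 12 generations onto C57BL/6J) lack it in every tissue, not only in the cochlea. Each list came from 1 library of organs of Corti pooled from 10 mice (20 cochleae), so no difference between the genotypes could be tested against the spread between animals, and values below are descriptions of these libraries. In pooled tissue, opening in fewer cells and weaker opening in each cell cannot be told apart.

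Wnt ligands are secreted lipid-modified glycoproteins that bind Frizzled receptors. With the Lrp5 or Lrp6 co-receptor, binding stops the destruction complex, to which Apc belongs, from degrading β-catenin, and β-catenin then enters the nucleus and activates target genes with TCF and LEF proteins. Other ligands, such as Wnt5a, act through Frizzled receptors on planar cell polarity, which orients the hair bundles of the cochlea. In the neonatal organ of Corti, Wnt responsiveness is known as a property of Lgr5-expressing supporting cells with progenitor capacity.

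The lists held 77596 peaks labelled WT and 100431 labelled Bmi1-/- on chromosomes 1 to 19, X and Y. The lists carry no read totals, and the commonest background solved from the peaks was 6.32 reads in the former and 8.04 in the latter, a ratio of 1.27. In the former all peak names started with bko and in the latter all started with bwt, which goes against the labels, so the lists are named as labelled and every direction below rests on those labels. The Bmi1 gene body held 1 peak labelled WT and 3 labelled Bmi1-/-, and the position of the targeted segment was not given in the sources used here, so these peaks do not check the genotype. Of markers of hair cells, 7 of 8 had a promoter peak in each list, and of supporting cell markers 7 of 8 labelled WT and 6 of 8 labelled Bmi1-/-. Markers of neurons had one in 4 and 5 of 6 genes respectively, of glia in 2 and 3 of 5, of mesenchyme in 3 and 4 of 5, of endothelium in 3 and 3 of 4, and of blood and macrophages in 3 and 1 of 5. Over all protein-coding genes, 59.1% had a promoter peak labelled WT and 68.2% one labelled Bmi1-/-. Counts of so few markers beside these shares do not show which cell types were present. Among the defining genes of the other cell types, Sox10 (glia) and Ptprc (leukocytes) had no promoter peak in either list. The part of other cell types in the results below was not tested.

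The sequences under the promoter peaks on which the results turn are shown first, from the GRCm38 genome and in the direction of transcription. For Wnt3a and Tcf7l1 they are stretches covered by peaks in both lists, upstream of a TSS and outside the exons. For Wnt5a it is a stretch under a peak found only in the list labelled Bmi1-/-. Capitals mark CpG dinucleotides, which are frequent in many developmental gene promoters.
Wnt3a, chr11:59290753-59290856, minus strand: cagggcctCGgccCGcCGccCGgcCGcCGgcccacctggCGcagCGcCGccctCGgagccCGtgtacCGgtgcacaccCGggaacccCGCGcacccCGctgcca
Tcf7l1, chr6:72789374-72789523, minus strand: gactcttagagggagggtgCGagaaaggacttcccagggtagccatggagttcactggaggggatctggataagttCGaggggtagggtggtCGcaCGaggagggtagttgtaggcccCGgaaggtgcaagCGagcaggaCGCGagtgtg
Wnt5a, chr14:28510138-28510287, plus strand: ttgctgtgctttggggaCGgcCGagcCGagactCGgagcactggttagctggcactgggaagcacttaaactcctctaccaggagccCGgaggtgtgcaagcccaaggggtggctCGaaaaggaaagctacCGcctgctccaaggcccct
The Wnt3a stretch was the richest of these, with 16 CpG in 104 bases. The Tcf7l1 stretch held 8 in 150 bases and the Wnt5a stretch 7 in 150.

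CpG-rich promoters were frequent among the 43 genes. In the window from 250 bases before to 50 bases after the outermost TSS, 29 of 43 (67.4%) reached the level of a CpG island, taken as a GC content of at least 50% and an observed to expected CpG ratio of at least 0.6, compared with 41.3% of all protein-coding genes. These were 11 of 18 ligands, 9 of 12 receptors, 5 of 6 effectors and 4 of 7 inhibitors. The median GC content was 66.0%, against 55.0% for all genes.

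Most of the pathway, 72.1% of the 43 genes, had a promoter peak in both lists, compared with 53.0% of all protein-coding genes. A promoter peak was found for 31 of the 43 genes in the list labelled WT, where 59.1% of all protein-coding genes had one, and for 41 in the list labelled Bmi1-/-, where 68.2% did. All 31 were among the 41. The other 10 had a promoter peak only in the list labelled Bmi1-/-, and 0 genes had one only in the list labelled WT. Over all genes, the corresponding shares were 15.2% and 6.1%. The 10 genes were Wnt1, Wnt3, Wnt4, Wnt5a, Wnt9a, Wnt9b, Fzd6, Tcf7, Dkk2 and Dkk3, so that 6 were ligands. When the same number of the strongest peaks was taken from each list, 7 of the 10 still had one only in the list labelled Bmi1-/-, since the weak peaks of Wnt9b, Fzd6 and Tcf7 were no longer included. Wnt7a and Dkk1 had no promoter peak in either list. They are 4.65% of the 43 genes, compared with 25.7% of all protein-coding genes.

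**Figure D1:**
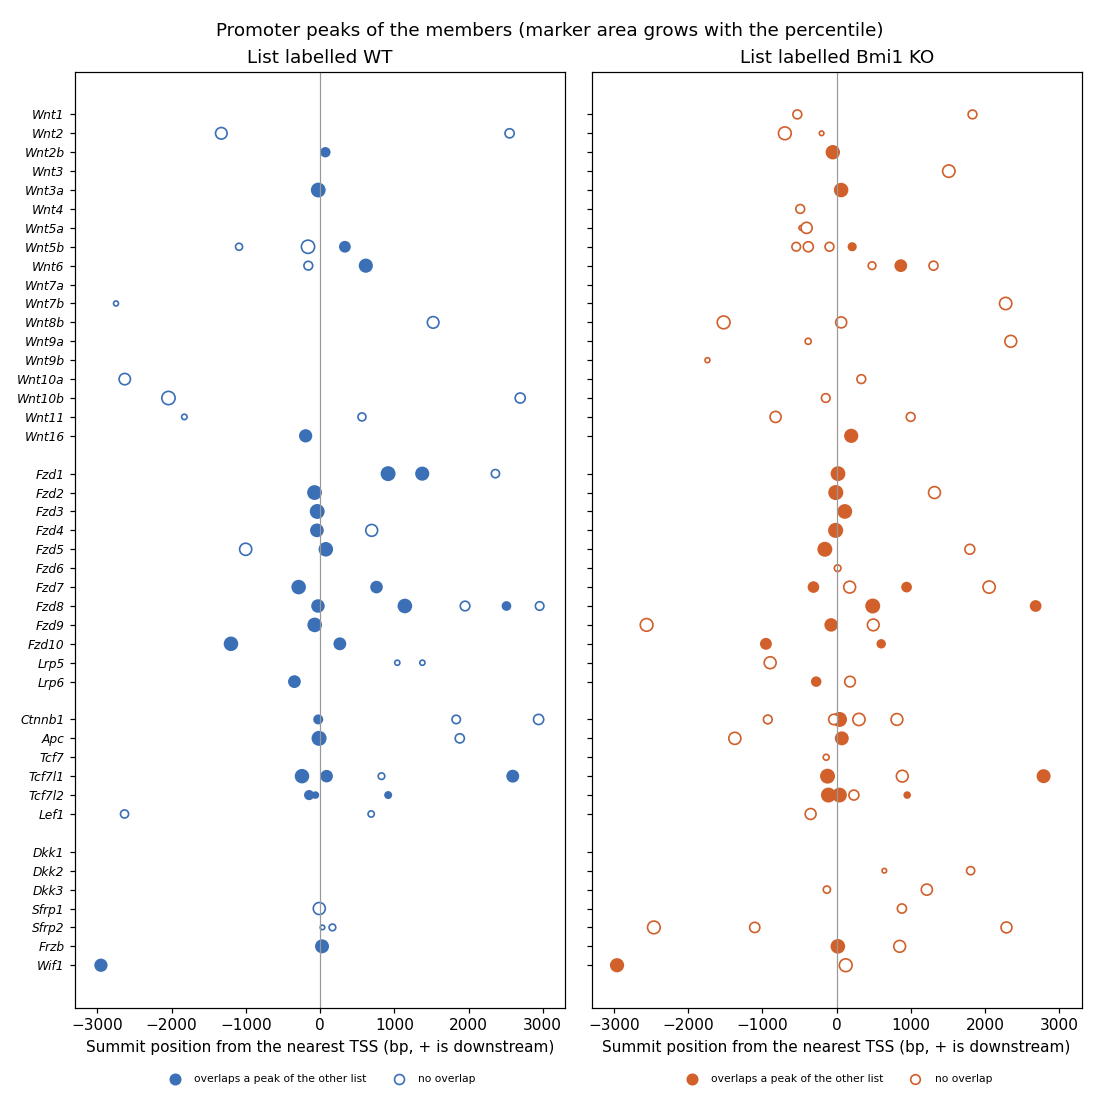
Position of every promoter peak of the 43 genes, in bp from the nearest TSS of the gene (horizontal axis, negative values upstream), for the list labelled WT (left) and the list labelled Bmi1-/- (right). Each circle is 1 peak, filled where it overlaps a peak of the other list, and its area grows with the percentile of the peak in its own list. Filled circles gather at the TSS of the Frizzled genes, and the rows of 10 genes are empty on the left and occupied on the right.

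The strength of a peak was described by its percentile among all peaks of its own list, ranked by −log10 p. This percentile does not remove the difference between the lists, as the values over all genes below show. Of the 41 genes that could be ranked, 28 had their highest percentile at a promoter peak labelled Bmi1-/- and 13 at one labelled WT. A list without a promoter peak counted as lower, so the 28 included the 10 genes with one only in the list labelled Bmi1-/-. The share of 68.3% was close to the 68.6% of all protein-coding genes, counted in the same way. Of those 11185 genes, 3342 had a promoter peak only in the list labelled Bmi1-/-. By role, 12 of 17 ligands, 6 of 12 receptors, 5 of 6 effectors and 5 of 6 inhibitors had it labelled Bmi1-/-. These counts included 6 ligands, 1 receptor, 1 effector and 2 inhibitors with a promoter peak only in that list. The median percentile of the strongest promoter peak was 77.3 labelled WT and 80.0 labelled Bmi1-/- over the 43 genes, and 76.8 and 87.3 over all genes.

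**Figure D2:**
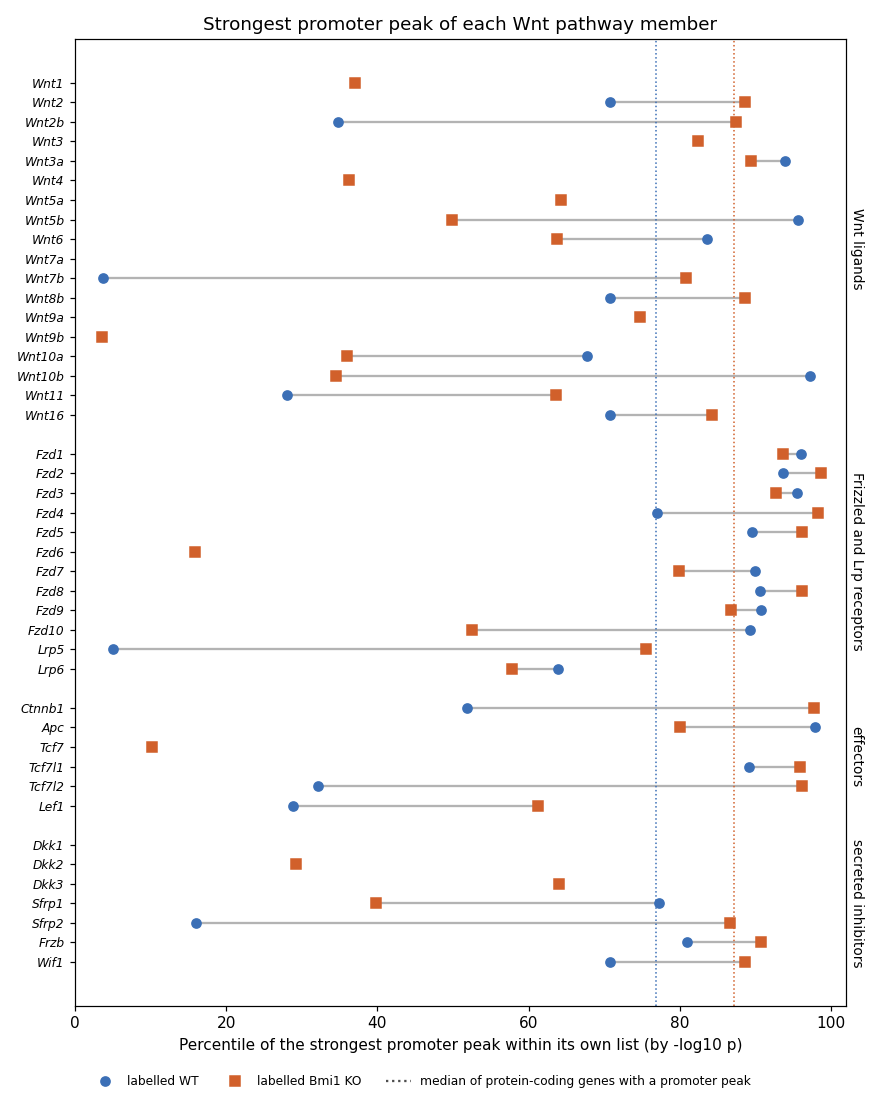
Percentile of the strongest promoter peak of each gene within its own list (horizontal axis, from weakest to strongest by −log10 p), with blue circles for the list labelled WT and orange squares for the list labelled Bmi1-/-. A grey line joins a gene's values, and a missing symbol means no promoter peak. Dotted lines mark the medians over all genes with a promoter peak in the list, 76.8 and 87.3. The Frizzled genes lie mostly at the right in both lists, and the ligands are spread over the whole range.

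Few promoter peaks reached a −log10 q of 5. No gene of the 43 had one in the list labelled WT, where 4.17% of all genes did, and 7 had one in the list labelled Bmi1-/-, where 17.6% did. These were Fzd2, Fzd4, Fzd5, Fzd8, Ctnnb1, Tcf7l1 and Tcf7l2, that is 4 receptors and 3 effectors but no ligand or inhibitor. At a −log10 q of at least 1.3, corresponding to a q-value of about 0.05, 24 of the 43 genes kept a promoter peak labelled WT and 33 one labelled Bmi1-/-, where 45.3% and 60.4% of all genes did.

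Among the ligands, 11 of 18 had a promoter peak labelled WT and 17 of 18 labelled Bmi1-/-. The strongest over both lists was that of Wnt3a, a ligand of the β-catenin pathway, at chr11:59290613-59291151 labelled WT and chr11:59290582-59290856 labelled Bmi1-/-. At its summit 27 reads lay over a background of 8.48 labelled WT (percentile 94.0) and 30 reads over 10.8 labelled Bmi1-/- (percentile 89.4). Both summits lay within 60 bp of the TSS, and the signal over background had a ratio of 0.876 (95% interval 0.503 to 1.53). Here and below the ratio is Bmi1-/- over WT as labelled, and its exact conditional interval covers counting error only.

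Wnt2 and Wnt8b followed in mean rank, but their peaks did not coincide between the lists. The strongest Wnt2 promoter peak had 19 reads over 6.32 labelled WT, 1331 bp upstream of the TSS, and 25 reads over 8.04 labelled Bmi1-/-, 698 bp upstream. That of Wnt8b had the same reads and backgrounds, 1523 bp downstream of a TSS labelled WT and 1523 bp upstream of one labelled Bmi1-/-. A summit of 19 or 25 reads over the commonest background of its library is a value that many peaks share, so these peaks were tied in rank with many others.

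The 6 ligands with a promoter peak only in the list labelled Bmi1-/- differed in strength. The peak of Wnt3, a neighbour of Wnt9b on chromosome 11, was the strongest, with 27 reads over a background of 9.82, 1511 bp downstream of the TSS (percentile 82.5, −log10 q of 2.67). Wnt9a followed with 36 reads over 16.1 at percentile 74.8, and its summit lay 2346 bp downstream of a TSS. Wnt5a, a ligand of the planar cell polarity branch, had 27 reads over 11.3, 405 bp upstream of a TSS (chr14:28510119-28510717, percentile 64.3), in the CpG-containing stretch shown above. In the same gene the list labelled WT was not empty. It held 4 peaks in the gene body and upstream region, of which 2 overlapped a peak labelled Bmi1-/-, with summits about 7 and 10 kb downstream of the nearest TSS.

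Wnt1 and Wnt4 had weaker peaks, each with 23 reads, over backgrounds of 10.1 and 10.2 at percentiles 37.0 and 36.2. Both summits lay close to the TSS, 530 bp and 491 bp upstream. The Wnt9b peak, with 19 reads over 9.44, was among the weakest of its list (percentile 3.59, −log10 q of 0.632). At a −log10 q of at least 1.3, promoter peaks of Wnt3, Wnt5a and Wnt9a remained and those of Wnt1, Wnt4 and Wnt9b did not.

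Of the 11 ligands with a promoter peak in both lists, only 5 had peaks that overlapped, namely Wnt2b, Wnt3a, Wnt5b, Wnt6 and Wnt16. This was 45.5%, against 76.2% of all genes with promoter peaks in the pair of lists. Wnt2b had 21 reads over 8.78 labelled WT (percentile 34.8) and 30 over 10.9 labelled Bmi1-/- (percentile 87.5). In signal over background its ratio was 1.15 (0.638 to 2.12), so that the large gap in rank corresponded to a small ratio with an interval on both sides of 1. Wnt6 had the lowest ratio of these ligands, with 22 reads over 7.28 labelled WT, 24 over 9.52 labelled Bmi1-/- and a ratio of 0.834 (0.448 to 1.56). This pair of peaks also fell in the 10 kb upstream of Wnt10a, the next gene on chromosome 1.

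The strongest peaks of Wnt5b lay at different start sites. Its strongest promoter peak labelled WT had 26 reads over 7.62, 163 bp upstream of the outermost TSS (percentile 95.6). The strongest labelled Bmi1-/- had 25 reads over 10.9 at another TSS inside the gene (chr6:119449619-119449942, percentile 49.9), and no peak labelled Bmi1-/- overlapped the former. Both lists nevertheless had a weaker, overlapping peak near the outermost TSS. The summits of this pair lay 334 bp (labelled WT) and 209 bp (labelled Bmi1-/-) downstream of a TSS. With 20 reads over 7.58 and 21 over 9.52, the pair had a ratio of 0.836 (0.431 to 1.63). Wnt10b, which lies next to Wnt1 on chromosome 15, had the highest-ranking ligand peak labelled WT, with 27 reads over 7.40, 2043 bp upstream of its TSS (percentile 97.2, −log10 q of 4.18). No peak labelled Bmi1-/- overlapped it. The only promoter peak of Wnt10b in that list lay closer to the TSS, 147 bp upstream, with 23 reads over 10.4 at percentile 34.5. With a promoter window of 1 kb, Wnt10b therefore had a promoter peak only in the list labelled Bmi1-/-. Wnt7b showed the opposite order, with 20 reads over 10.1 labelled WT (percentile 3.64) and 29 over 11.3 labelled Bmi1-/- (percentile 80.9), at places about 5 kb apart.

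The TCF and LEF proteins recognise a core sequence that includes the 7 bases ATCAAAG, which was searched on both strands within 100 bp of every summit. Among promoter peaks it was found in 2 of 58 labelled WT and 0 of 78 labelled Bmi1-/-, whereas 1.37% and 1.36% of all promoter peaks held it. These were the peaks of Wnt10b and Lrp6, of which the following stretches of 51 bases show the word in capitals, in the reverse orientation for Lrp6.
Wnt10b, chr15:98780129-98780179, minus strand: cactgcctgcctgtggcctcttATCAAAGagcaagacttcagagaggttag
Lrp6, chr6:134567327-134567377, minus strand: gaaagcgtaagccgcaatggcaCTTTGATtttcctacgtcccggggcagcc
Of the promoter windows themselves, only that of Wnt11 held the word, 1 of 43 against 3.41% of all genes. A match describes the letters only and does not show that a factor is bound.

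Most receptors had overlapping peaks close to a TSS. A promoter peak was found for 11 of 12 labelled WT and for all 12 labelled Bmi1-/-, and in 10 of the 11 with one in both lists (90.9%, against 76.2% of all genes) the peaks overlapped. Fzd2, a Frizzled receptor encoded by a single-exon gene, had the strongest. It had 26 reads over 8.06 labelled WT (chr11:102604181-102604514, percentile 93.7) and 43 over 11.1 labelled Bmi1-/- (chr11:102604190-102604955, percentile 98.7), with summits 75 and 12 bp upstream of the TSS. The ratio was 1.20 (0.719 to 2.03).

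Fzd1 and Fzd3 came next in mean rank, and both ranked slightly higher in the list labelled WT. Fzd1 had 25 reads over 6.90 labelled WT and 31 over 10.1 labelled Bmi1-/-, with a ratio of 0.849 (0.485 to 1.499). The Fzd1 peak was 736 bp wide in the former list and 2337 bp in the latter, where it overlapped 2 peaks of the former. Fzd3, which acts in planar cell polarity, had 24 reads over 6.68 and 28 over 8.72, and a ratio of 0.894 (0.499 to 1.61). Fzd6, which acts with Fzd3 in orienting hair cells, was the receptor without a promoter peak labelled WT. Its peak labelled Bmi1-/- had 18 reads over 8.04, 13 bp from the TSS, at percentile 15.8, and Fzd6 had 0 peaks labelled WT and 5 labelled Bmi1-/- in its gene body and upstream region.

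Fzd4, the receptor for Norrin as well as for Wnt ligands, showed the highest ratio of the receptors. It had 23 reads over 8.16 labelled WT (percentile 77.0) and 39 over 10.2 labelled Bmi1-/- (percentile 98.3), and the ratio was 1.36 (0.792 to 2.38). The lowest ratios were those of Fzd7, at 0.740 (0.421 to 1.31), and Fzd10, at 0.806 (0.447 to 1.45). Fzd7 had 27 reads over 9.28 labelled WT and 28 over 13.0 labelled Bmi1-/- at its overlapping peaks, and Fzd10 had 26 over 8.92 and 25 over 10.6. The ratios of Fzd5 and Fzd8, the other receptors with a −log10 q above 5 labelled Bmi1-/-, were 1.11 (0.677 to 1.85) and 1.04 (0.606 to 1.803). The interval included 1 for each of the 10 receptors.

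Of the co-receptors, Lrp6 had 19 reads over 6.62 labelled WT and 20 over 8.36 labelled Bmi1-/- at its overlapping peaks, and a ratio of 0.834 (0.422 to 1.65). Lrp5 was the only receptor gene with promoter peaks in both lists that did not overlap. Its strongest promoter peak labelled WT had 15 reads over 6.60 at a TSS inside the gene (percentile 5.05), and that labelled Bmi1-/- had 27 reads over 10.4, 896 bp upstream of the outermost TSS (percentile 75.6). Lrp5 also had the most peaks of the receptors in its gene body and upstream region, 10 in each list, of which 2 in each overlapped.

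Among the effectors, 5 of 6 had a promoter peak labelled WT and all 6 labelled Bmi1-/-. The strongest lay within 500 bp of a TSS for 3 of the 5 labelled WT and all 6 labelled Bmi1-/-. Over all genes with a promoter peak, these shares were 61.9% and 70.2%. Tcf7l1, a TCF protein known mainly as a repressor of Wnt target genes, ranked highest over both lists. It had 24 reads over 7.86 labelled WT (percentile 89.2) and 36 over 11.4 labelled Bmi1-/- (percentile 96.0), and a ratio of 1.04 (0.601 to 1.82). Ctnnb1, which encodes β-catenin, had the highest ratio of all 21 genes with overlapping promoter peaks. Its overlapping peaks had 20 reads over 8.42 labelled WT (percentile 31.2) and 39 over 11.0 labelled Bmi1-/- (percentile 97.8, −log10 q of 6.94), which gave a ratio of 1.49 (0.847 to 2.69). Tcf7l2 had 18 reads over 7.14 labelled WT (percentile 32.2) and 34 over 10.1 labelled Bmi1-/- (percentile 96.2), and a ratio of 1.34 (0.733 to 2.51).

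Apc, whose product holds β-catenin in the destruction complex, lay at the other end. Its peak at the TSS had 26 reads over 6.58 labelled WT (percentile 97.9, −log10 q of 4.55) and 27 over 10.3 labelled Bmi1-/- (percentile 80.0, −log10 q of 2.35). The ratio of 0.663 (0.373 to 1.18) was the lowest of the 21. The reads at the summits were nearly equal and the local backgrounds were not, and over the commonest background of each library the ratio was 0.816. The nuclear effectors Tcf7 and Lef1 encode the TCF and LEF proteins that are best known from T cells. Tcf7 had none labelled WT and 1 of 22 reads over 11.0 labelled Bmi1-/- (percentile 10.1). Lef1 had 19 reads over 7.98 labelled WT (percentile 28.9) and 25 over 10.4 labelled Bmi1-/- (percentile 61.2), at places that did not overlap.

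Over the 21 genes with overlapping promoter peaks, 5 ligands, 10 receptors, 4 effectors and 2 inhibitors, the median ratio was 0.990, compared with 1.02 over the 8853 protein-coding genes with such peaks. A ratio of at least 1.5 was reached by 0 of the 21 genes towards Bmi1-/- and by 1, Apc, towards WT. Over all genes the shares were 3.86% and 2.03%. The interval included 1 for all 21 genes, so at this depth no difference in signal at any overlapping promoter peak was detectable beyond counting error.

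**Figure D3:**
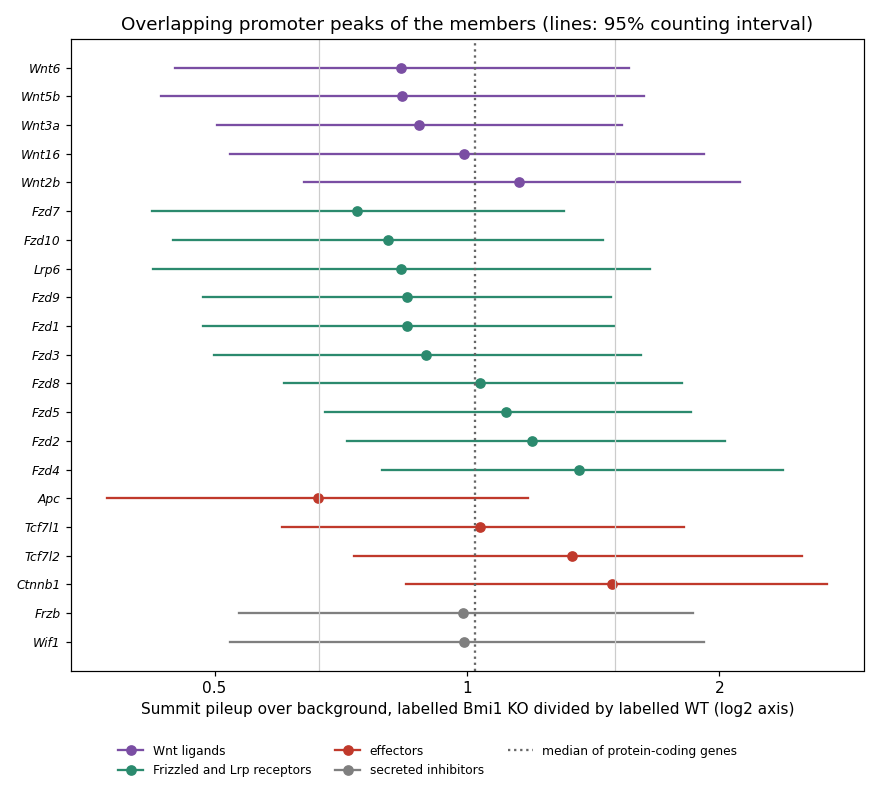
Ratio of summit reads over background, Bmi1-/- divided by WT as labelled (horizontal log2 axis), for the 21 genes with overlapping promoter peaks, coloured by role. Points are ratios, lines are 95% counting intervals, grey lines mark 1.5-fold in each direction and the dotted line marks the median of all genes at 1.02. Ctnnb1 lies highest at 1.49 and Apc lowest at 0.663, and every interval includes 1.

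Among the secreted inhibitors, 4 of 7 had a promoter peak labelled WT and 6 of 7 labelled Bmi1-/-. Frzb, a secreted Frizzled-related protein that binds Wnt ligands, was the strongest. It had 20 reads over 6.32 labelled WT (percentile 81.0) and 27 over 8.62 labelled Bmi1-/- (percentile 90.8), both within 30 bp of the TSS, and a ratio of 0.990 (0.535 to 1.86). Wif1, which also binds Wnt ligands, had overlapping peaks 2953 bp upstream of its TSS in the list labelled WT, with 19 reads over 6.32 and 24 over 8.04 and a ratio of 0.993 (0.521 to 1.92). A further Wif1 peak 122 bp downstream of the TSS, with 25 reads over 8.04, was present only in the list labelled Bmi1-/-.

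The promoter peaks of Sfrp1 and Sfrp2, relatives of Frzb, did not overlap between the lists. Sfrp1 had 23 reads over 8.12 labelled WT, 11 bp upstream of the TSS, and 26 over 11.8 labelled Bmi1-/-, 879 bp downstream. Sfrp2 had 21 reads over 9.72 labelled WT (percentile 16.0) and 32 over 12.3 labelled Bmi1-/- (percentile 86.7), the latter 2463 bp upstream. Dkk3 had 25 reads over 10.1 only in the list labelled Bmi1-/-, 1215 bp downstream of the TSS (percentile 64.1), and Dkk2 had 19 reads over 8.04 in the same list (percentile 29.2). Dkk1, an antagonist that binds Lrp5 and Lrp6, had no promoter peak, and a single peak labelled WT in its gene body and upstream region.

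Outside the promoters, the genes with long introns carried most of the peaks. The gene bodies, upstream regions and promoters of the 43 genes held 162 peaks labelled WT and 214 labelled Bmi1-/-. Of these, 58 and 78 were promoter peaks, 76 and 112 lay in introns, 14 and 10 in exons, and 14 and 14 upstream. Overlap with the other list was 28.4% labelled WT and 20.1% labelled Bmi1-/-, where 24.8% and 18.5% of all peaks overlapped. Of the peaks in the gene bodies and 10 kb upstream of all protein-coding genes, 28.9% and 21.9% overlapped. The receptors had the highest shares, 48.6% and 37.2%, the ligands 13 of 52 and 13 of 70 peaks, the effectors 22.2% and 15.1%, and the inhibitors 15.8% and 10.7%. Of the intronic peaks, 12 labelled WT and 11 labelled Bmi1-/- overlapped the other list, compared with 30 and 27 of the promoter peaks.

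Tcf7l2 had 17 peaks labelled WT and 24 labelled Bmi1-/-, and Tcf7l1 had 18 and 19. Of the Tcf7l1 peaks 6 and 5 overlapped, and of the Tcf7l2 peaks 4 in each list. Lef1 had 6 and 16 peaks, and 0 of them overlapped. Wnt5b had the most peaks of the ligands, 17 and 15, and several of these lay nearer to a TSS of Fbxl14, a gene within its span. Of the inhibitors, Wif1 had 4 and 9 and Dkk3 had 6 and 6. Among peaks outside promoters, the strongest labelled Bmi1-/- was such a peak in a Wnt5b intron, 567 bp from a TSS of Fbxl14, with 35 reads over 12.1 (percentile 94.0), and it overlapped a peak labelled WT.

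**Figure D4:**
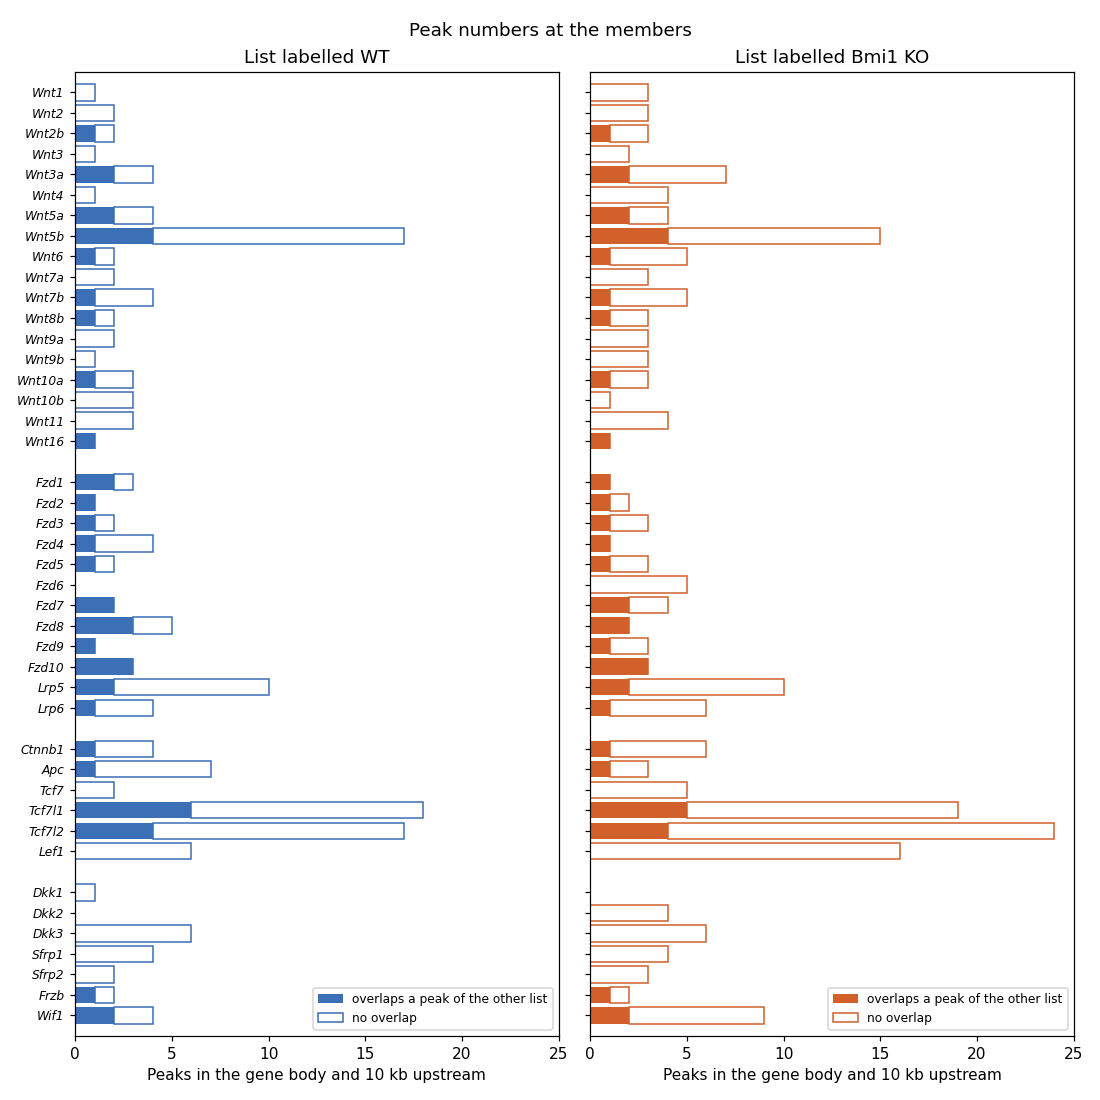
Number of peaks in the gene body and 10 kb upstream of each gene (horizontal axis), for the list labelled WT (left) and the list labelled Bmi1-/- (right). The filled part of a bar counts peaks that overlap a peak of the other list. Tcf7l2 has 17 and 24 peaks, Tcf7l1 18 and 19, and Lef1 6 and 16 with no filled part.

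Strong peaks overlapped more often than weak ones. Of the 15 peaks of the 43 genes at or above percentile 90 of the list labelled Bmi1-/-, 13 (86.7%) overlapped a peak labelled WT, compared with 59.8% of all peaks in that range, and their median width was 714 bp against 522 bp. Below the median of the list, 11.9% of the peaks of the 43 genes overlapped, compared with 10.9% of all peaks. In the list labelled WT, 8 of 15 (53.3%) overlapped at or above percentile 90, compared with 57.4% of all peaks there, and 13 of 77 (16.9%) below the median, compared with 18.1%.

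The other Wnt pathway genes listed with them numbered 53 and covered further ligands and secreted regulators, intracellular transducers, components of the destruction complex and nuclear cofactors. A promoter peak was found for 39 labelled WT and 47 labelled Bmi1-/-, of which 36 had one in both lists. The 3 with one only in the list labelled WT were Dkk4, Porcn and Notum, all at or under percentile 45.7. The 11 with one only in the list labelled Bmi1-/- were Sfrp5, Sost, Wls, Ptk7, Gpc4, Dvl1, Gsk3a, Csnk1d, Apc2, Ctnnbl1 and Amer1. The highest-ranking of these was Wls, which carries Wnt ligands to the cell surface, at percentile 93.4. The strongest 3 over both lists were Daam1, a planar polarity effector (percentiles 99.7 and 99.7), Tle1, a corepressor of TCF proteins (99.3 and 99.7), and Ctnnbip1, an inhibitor of β-catenin (99.6 and 99.4). Axin2, a feedback target of the pathway, had its strongest promoter peaks at percentiles 61.9 and 96.9, and these did not overlap. A weaker overlapping pair of Axin2 promoter peaks had a ratio of 0.842 (0.468 to 1.53). At a −log10 q of at least 5, 8 of the 53 genes had a promoter peak labelled WT and 18 labelled Bmi1-/-. The median ratio over the 31 of these genes with overlapping promoter peaks was 0.981.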

How the data were processed

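Peak lists of 1 WT and 1 Bmi1-/- library were used, and GEO's labels gave the genotype. The authors' reads were paired-end, trimmed, checked with FastQC and aligned by BWA-MEM, and MACS2 was run on every library. Per the submitters' processing notes the build was mm10. The deposited fold enrichment is a ratio of summit pileup to local background, each with 1 added. The deposited −log10 p and −log10 q values of the authors come from a Poisson model and its adjustment within a library. The deposited score, which equals the −log10 p multiplied by 10, was left unused.

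Pileup and background were solved from fold enrichment and −log10 p, which succeeded for 100% of peaks and was tested on simulated data. The 230 and 237 peaks on other sequences were left out of the lists labelled WT and Bmi1-/-. Annotation was GENCODE vM21 on GRCm38, in an alternative curated RefSeq. Overlaps of at least 1 bp were found with bedtools 2.31.1, and other steps used Python 3.11.15, numpy 2.4.6, pandas 2.3.3, scipy 1.17.1, pysam 0.24.0 and matplotlib 3.10.9. Where a gene had several overlapping pairs of promoter peaks, the pair with the highest summed −log10 p gave the ratio of pileup over background. Intervals are exact conditional 95% intervals and cover counting error only. No test between genotypes was made, since each had 1 library.

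Genes named with full values were those with a promoter peak in 1 list only, the 3 highest in mean percentile per role, the 5 with the largest rank difference and ratio in each direction among genes with overlapping promoter peaks, and the gene with most peaks per role. For the 53 other pathway genes these were the 3 strongest and any with a promoter peak in 1 list only. Wnt7a, Wnt7b, Wnt10b, Wnt11, Dkk1, Sfrp2, Fzd5, Fzd8, Lef1, Lrp6 and Axin2 were added after their values were seen. The genes and lists were chosen with earlier results of these data known. A marker gene and a promoter sequence are not reported here.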

Additional observations from a re-analysis of the deposited data

How the results depend on the processing

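A −log10 q of at least 5 left promoter peaks at 0 genes labelled WT, 7 labelled Bmi1-/- and 0 in both lists, so that the strongest promoter peak ranked higher for 7 genes labelled Bmi1-/- and for 0 labelled WT. It left 0 peaks labelled WT and 7 labelled Bmi1-/- at the 43 genes, of which 0% overlapped, and no share could be given for WT. A −log10 q of at least 1.3 left 86 peaks labelled WT and 137 labelled Bmi1-/-, and promoter peaks only in the list labelled WT then appeared at 2 genes, Wnt10a and Wnt10b. With a promoter window of 1 kb this was 1 gene, Sfrp2, while Wnt10a and Wnt10b had a promoter peak only in the list labelled Bmi1-/-. A reciprocal overlap of at least 50% lowered the shares of overlapping peaks to 13.6% labelled WT and 10.3% labelled Bmi1-/-. The number of genes with a promoter peak only in the list labelled Bmi1-/- ranged from 7 (lists of equal size, or a −log10 q of at least 5) to 14 (a 1 kb window, or RefSeq TSS). Over all genes the shares under these settings were 13.2%, 14.4%, 17.0% and 17.9%, in the order given. The 7 genes at a −log10 q of at least 5 were different genes from those of the full lists. In the full lists each of these 7 had a promoter peak labelled WT as well. The median ratio ranged from 0.942 to 0.993. Over the commonest background of each library, Apc no longer passed 1.5-fold (0.816) and Ctnnb1 did (1.53).

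With 1 library per genotype the spread between animals is unknown, and the lists carry no read totals. Presence in 1 list only depends on the threshold. Of the peaks outside promoters, the nearest TSS was that of the assigned gene for 84.1% labelled WT and 84.8% labelled Bmi1-/-. No paired analysis was possible because each genotype has 1 library and the labels carry no replicate numbers.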
